A study of Mus musculus with 4 samples.

Results

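The splicing tables of these Neuro-2a cells list 479 microexons, in 432 genes, among 54322 cassette exons. A cassette exon is an exon that is either kept in the mRNA or skipped, and a microexon was here a row that the tables place in their microexon class, with a length of 3 to 15 nt. A microexon was compared where all 4 libraries held a PSI and at least 3 of them a coverage score of LOW or better, which left 298 microexons in 271 genes out of 32973 exons in all. PSI, the percent spliced in, is the percentage of a gene's transcripts that include the exon. Neuro-2a (N2a) is a mouse neuroblastoma line, a tumour line with features of sympathetic neuron precursors. The cells received non-targeting siRNA (siControl) or siRNA against Arglu1 (siArglu1) for 48 h, then ethanol vehicle or 100 nM of the glucocorticoid dexamethasone (Dex) for 4 h. RNA of 3 cultures was pooled for each of the 4 combinations and made into 1 polyA library, so no group has a replicate and no p-value is attached to the PSI of a named microexon. A change is therefore named by its size, as a difference of at least 15 PSI points, and the knockdown was read in 2 pairs of libraries that share no library, siArglu1 against siControl in vehicle and the same in Dex.

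Microexons are among the shortest exons that the spliceosome recognises, often too short to be defined as an exon without help from proteins bound in the introns beside them. Many are included mainly in neurons, where SRRM4 (nSR100) and its relative SRRM3 bind just upstream of them and promote inclusion, while PTBP1 represses neural exons. Most neural microexons keep the reading frame and add or remove a few residues at the surface of proteins of synapses, the cytoskeleton, vesicle traffic and GTPase signalling. ARGLU1 is a nuclear protein rich in arginine and glutamate that binds splicing factors and also acts as a coactivator of the glucocorticoid receptor, the receptor of Dex.

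The exons below are shown because their inclusion is described in the following paragraphs: 10 that were included less after knockdown, 2 whose PSI was higher by more than 13 points in each pair, and 2 of middle inclusion that moved little. Each line runs 5′ to 3′ along the mRNA, with the microexon in capitals and the ends of the neighbouring exons in lower case. Sequences and positions are those of GENCODE M21 transcripts (build GRCm38), found by the gene, the length of the exon and the lengths of both introns beside it, since the splicing tables use the older build mm9.
Nbea, 9 nt, chr3:55994048-55994056, minus strand: cgccaactGGTTCTAAGactgaatt
Psap, 9 nt, chr10:60297537-60297545, plus strand: tgcacatgCAGGATCAGcaacccaa
Lphn2, 12 nt, chr3:148860427-148860438, minus strand: cccttacaTGGAGCAAAAAGtctttgtg
Rapgef6, 15 nt, chr11:54651749-54651763, plus strand: ccttcagCTGTTGGTTTTTACTatattcc
Pacsin2, 6 nt, chr15:83383623-83383628, minus strand: agtttgagGATGAAgagtggtc
L1cam, 15 nt, chrX:73867022-73867036, minus strand: gacgaatATAAAGGACACCATGtgctaga
Vav2, 15 nt, chr2:27300430-27300444, minus strand: gcccatgATCAGATACATGCAGaaaatgg
Vav2, 15 nt, chr2:27284839-27284853, minus strand: caagaagTCTCATGGGAAGATGtggtcct
Agrn, 12 nt, chr4:156169546-156169557, minus strand: aatctccgAAATCCCGCAAGgtcccgca
Dnm1, 12 nt, chr2:32323179-32323190, minus strand: ggaaccagGATGAGATTCTGgtcattcg
Ccnl1, 14 nt, chr3:65950213-65950226, minus strand: actgcctgGGTAGTCCATGATGgaattaca
Incenp, 12 nt, chr19:9883192-9883203, minus strand: accctaagTGCAGCTTTGTTgagaagga
Dctn1, 15 nt, chr6:83197319-83197333, plus strand: gctggtgAGGAACCACAGCGAGggggcgc
Spna2, 15 nt, chr2:30014158-30014172, plus strand: catccagCTTTCCAAGCTGTTGagcaagc

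In all, 109 of the 298 microexons matched a GENCODE M21 exon in this way. Of these, 101 lay wholly in coding sequence, 1 partly, 2 in a 5′ untranslated region and 5 in transcripts of other classes. The 2 Vav2 microexons and the Ccnl1 microexon matched only transcripts that GENCODE labels as targets of nonsense-mediated decay, the pathway that removes mRNAs with an early stop codon.

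The libraries held 66074574 to 86541444 reads on genes. Arglu1 mRNA, the target, had 10165 and 11825 reads in the siControl libraries (vehicle and Dex) and 2637 and 3254 in the siArglu1 libraries. After scaling, 26.4% of it was left with vehicle and 22.5% with Dex. In RNA of whole cultures, fewer cells that use an exon and less use of it per cell cannot be told apart. Markers were read as cRPKM (reads scaled to library size and to the mappable length of the gene). The summed cRPKM of the markers of neuroblastoma and sympathetic neurons was 2460 and 2510 in the siControl libraries (vehicle, Dex) and 3370 and 3240 in the siArglu1 libraries. Of these 14 genes, 10 lay higher in both siArglu1 libraries than in both siControl libraries and 1, Th, lay lower. The share of all genes that separate in this way was not counted, so these counts have no baseline. Dbh, the enzyme that makes noradrenaline, had 3.2 and 3.49 with siControl and 12.53 and 14.17 with siArglu1. Phox2a, a transcription factor of noradrenergic neurons, had 44.87 and 47.47, then 98.83 and 96.9. Th went the other way, with 2.58 and 4.71, then 1.05 and 2.54. Chga, with 189.55 and 265.13, then 199.57 and 265.38, and Chgb, with 151.08 and 175.36, then 150.99 and 175.84, differed little with knockdown. Several of these markers thus differed between the siRNA states and not all of them. Without a baseline this does not set the markers apart from other genes, and its part in the PSI differences was not tested. None of the markers of fibroblasts, immune cells, endothelium or glia reached a cRPKM of 1 in every library, and the highest sum of such a list was 2.16, for glia.

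For most of the 298 microexons few N2a transcripts held the exon. In 72 of the 298, PSI was 0 in all 4 libraries, and in 106 more the mean of the siControl libraries was under 5. Another 16 stood at 5 to under 15, 52 at 15 to 85 and 52 over 85. Most microexons thus stood under 5, and equal numbers stood at middle levels and over 85.

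Reading frame and annotation went along with these levels. The length was a multiple of 3 in 65.3% of the microexons at 0 throughout, in 80.2% of those under 5, in 87.5% at 5 to under 15, in 94.2% at 15 to 85 and in 90.4% over 85, against 81.2% of all 298. The 109 microexons that matched GENCODE M21 had a median siControl PSI of 56.6, and 91.7% of them were a multiple of 3. The 189 that did not match had a median of 0.28, and 75.1% were a multiple of 3. An exon whose introns changed length between the builds also fails to match, so not every exon without a match is missing from the annotation.

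**Figure D1:**
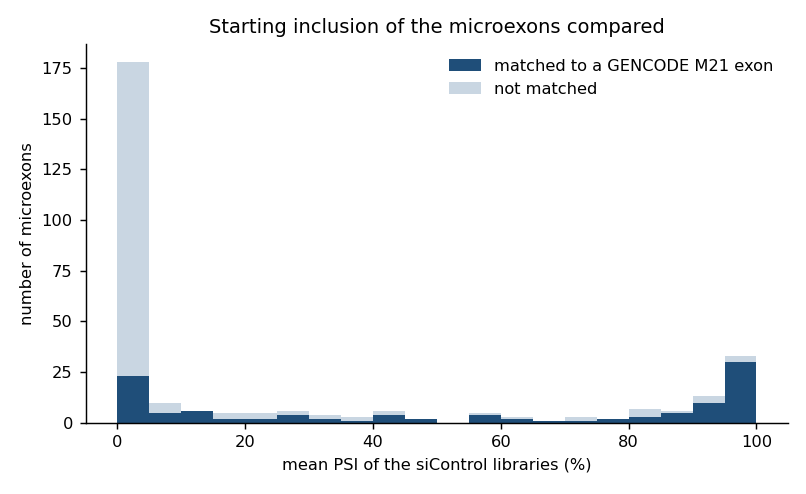
Number of microexons (vertical axis) by the mean PSI of the siControl libraries in percent (horizontal axis, bins of 5 points), divided into those matched to a GENCODE M21 exon and those not matched. Of the 298 microexons, 178 fall in the lowest bin, and 23 of these are matched.

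After Arglu1 knockdown 22 microexons in 21 genes were lower by at least 15 points in both pairs, and 0 were higher in both. Those 22 are 7.38% of the 298. Among all 32973 exons 0.798% changed in both pairs by this rule, 0.494% lower and 0.303% higher. Within the vehicle pair 30 microexons were lower and 3 higher, or 11.1% changed, against 2.39% of all exons (1.36% lower and 1.02% higher). In the Dex pair 30 were lower and 5 higher, or 11.7% changed, against 1.88% of all exons (1.03% lower and 0.858% higher). Lower PSI was thus seen in a larger share of microexons than of all exons, and this difference in shares was not tested. Several of the neuronal markers given above moved with the same pairs, without a baseline over all genes. A change in opposite directions in the pairs was seen in 0 microexons and in 0.0243% of all exons. The median difference over the 298 was 0 in both pairs, since most of them sat at or near 0 throughout.

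The direction was also seen without a threshold. Both siArglu1 libraries lay under both siControl libraries for 84 microexons (28.2%), beside 15.1% of all exons. They lay above both for 19 (6.38%), beside 15.9% of all exons. Among the 103 microexons with a PSI of at least 15 in both siControl libraries, these counts were 61 (59.2%, all exons 14.9%) and 9 (8.74%, all exons 14.8%).

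**Figure D2:**
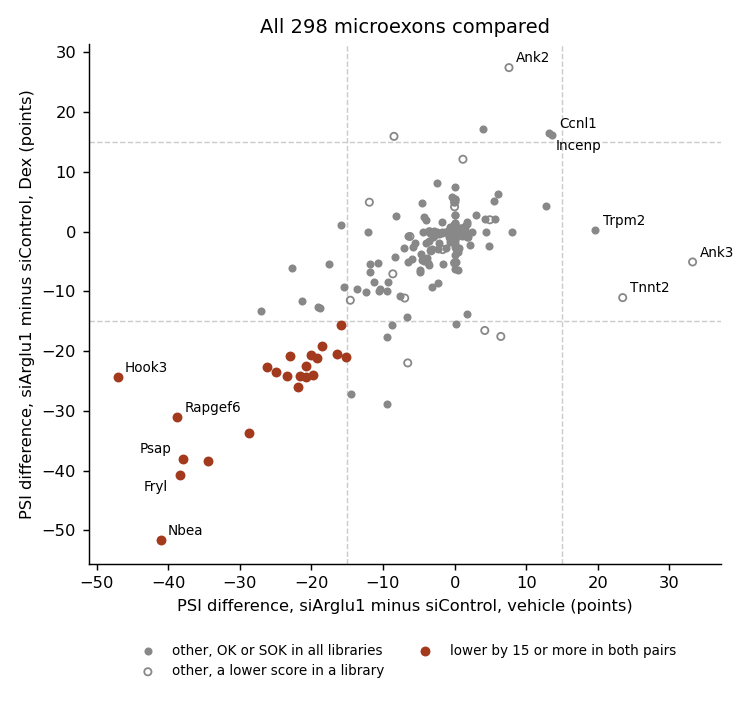
PSI difference in points, siArglu1 minus siControl, in the vehicle pair (horizontal) and the Dex pair (vertical), 1 point for each of the 298 microexons; dashed lines stand at 15 points in either direction. The 22 microexons lower in both pairs lie at the lower left, none lies past both lines at the upper right, and open points had a coverage score under OK in a library.

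Across the 298 microexons the differences of the vehicle and the Dex pair, which share no library, had a Pearson correlation of 0.767 (Spearman 0.534). It was 0.866 over the 260 microexons scored OK or SOK in all libraries and 0.958 over the 115 scored SOK in all. These are correlations across exons, not across replicates. The scores rise with read depth. In the tables of alternative splice sites, which give reads beside each score, N stood for 0 to 9 junction reads, VLOW for 10 to 19, LOW for 20 to 39, OK for 40 to 99 and SOK for at least 100, and the same ranges are assumed for microexons. Of the 22 microexons, 12 were SOK in all libraries, 21 were OK or SOK in all, and Slc43a2 was VLOW in 1 library.

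**Figure D3:**
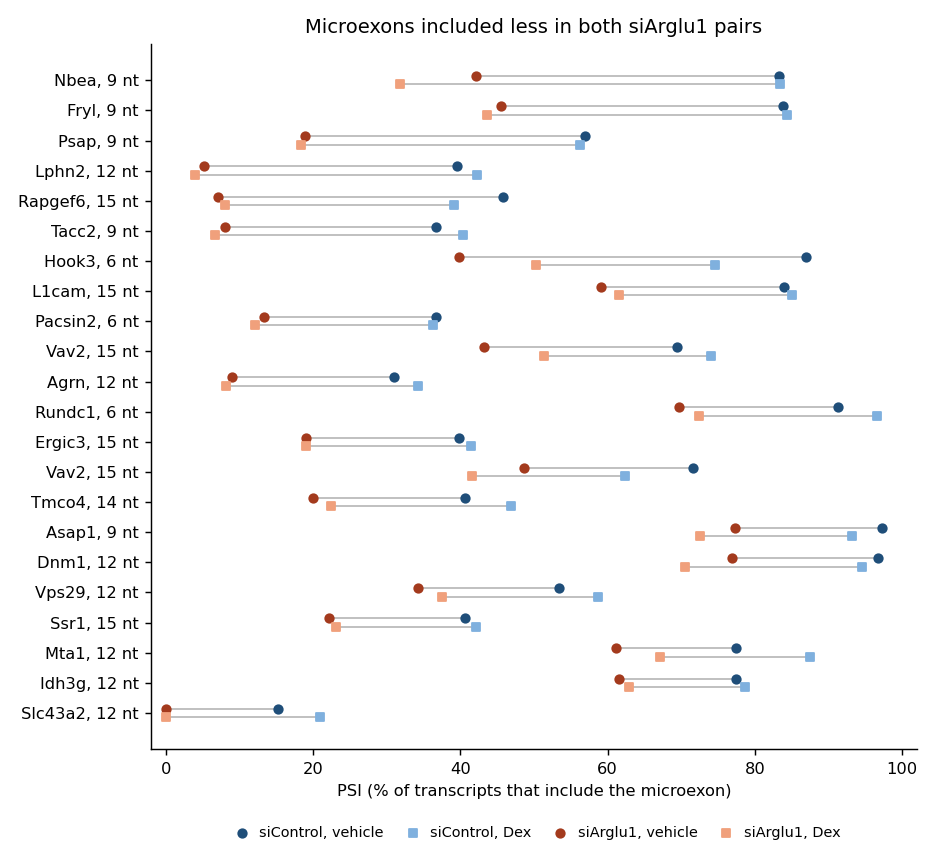
PSI in percent (horizontal axis) of the 22 microexons that were lower by at least 15 points in both pairs, 1 line for the vehicle pair and 1 for the Dex pair of each, with single libraries as points and no error bars. In every microexon both siArglu1 points lie left of both siControl points.

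Among genes of synapses and cell adhesion, 4 of the 15 microexons that had a PSI of at least 15 in both siControl libraries fell in both pairs. The 9 nt microexon of Nbea, which encodes neurobeachin, a scaffold of membrane traffic at synapses, had a PSI of 83.22 in siControl vehicle, 83.47 in siControl Dex, 42.17 in siArglu1 vehicle and 31.83 in siArglu1 Dex. It was lower by 41.05 points in the vehicle pair and by 51.64 points in the Dex pair. Lphn2, the adhesion receptor latrophilin 2, went from 39.57 and 42.21 in the siControl libraries (vehicle, then Dex, here and below) to 5.15 and 3.88 in the siArglu1 libraries, so that its 12 nt microexon was nearly lost. The 12 nt microexon of Agrn, which encodes the synapse-organising proteoglycan agrin, had 30.95 and 34.30 with siControl and 9.03 and 8.22 with siArglu1.

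The adhesion molecule gene L1cam holds 2 microexons that were compared. Its 15 nt microexon fell from 84.00 and 85.05 to 59.11 and 61.51. Its 12 nt microexon stood at 51.60 and 46.75 with siControl and at 40.40 and 38.31 with siArglu1, lower in both pairs but by less than 15 points. The other members of this list were mixed: Ncam1, another neural adhesion molecule, had a 3 nt microexon at 72.29 and 70.03 with siControl and 76.52 and 72.21 with siArglu1. Unc13a, a factor that primes synaptic vesicles, started higher, at 92.98 and 93.08, and stood at 82.39 and 83.08 after knockdown.

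In membrane trafficking, 4 of 17 such microexons fell in both pairs. Psap encodes prosaposin, the precursor of the saposins that help to break down sphingolipids in lysosomes. Its 9 nt microexon had 56.90 and 56.30 with siControl and 18.95 and 18.28 with siArglu1, all scored SOK, and was among the 5 microexons that lost at least 30 points in both pairs. Ergic3, a protein of the compartment between the endoplasmic reticulum and the Golgi, went from 39.80 and 41.45 to 19.00 and 18.99. Its values within a siRNA state differed by less than 2 points.

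The remaining pair of this list started near full inclusion. Dnm1, the dynamin of synaptic vesicle endocytosis, had 96.75 and 94.53 with siControl and 76.94 and 70.50 with siArglu1. Asap1, which activates GTP hydrolysis on Arf proteins, had 97.32 and 93.23, then 77.30 and 72.53. Of the others, the 9 nt microexon of Ap1b1, a clathrin adaptor subunit, lay higher after knockdown, at 37.34 and 40.23 against 31.81 and 35.15.

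In GTPase regulators and signalling, 3 of 6 fell in both pairs. Rapgef6, an exchange factor for Rap, lost most of its 15 nt microexon, from 45.79 and 39.09 to 7.07 and 8.05. Vav2, a guanine nucleotide exchange factor, contributed 2 microexons of 15 nt. The more upstream one fell from 69.41 and 73.98 to 43.18 and 51.30, and the other from 71.62 and 62.35 to 48.61 and 41.58. Both belong to 1 gene and are not independent of each other. The focal adhesion kinase gene Ptk2 had 94.10 and 93.96 with siControl and 75.29 and 81.25 with siArglu1, past 15 points in the vehicle pair alone.

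In the cytoskeleton list 1 of 14 fell in both pairs, the 9 nt microexon of Fryl, a relative of the fly gene furry, from 83.77 and 84.34 to 45.45 and 43.67. In chromatin and transcription it was 1 of 5, Mta1, a subunit of the NuRD remodelling complex, from 77.50 and 87.55 to 61.10 and 67.09. The list of RNA processing and translation held no gene with a microexon to count, though Hnrnpm, a splicing regulator outside the lists, has one, given below. The 46 microexons in none of the lists, 9 of which fell in both pairs, had a share of 19.6%, against 21.4% over all 103. The falls were thus not limited to the listed genes. The lists are not complete, and some unlisted genes, such as Pacsin2 and Vps29 below, have roles like those of the lists. The shares by list therefore cover only the genes listed.

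Those 9 had varied roles. Tacc2, a protein of centrosomes and microtubules, went from 36.70 and 40.31 to 8.02 and 6.67. Hook3, which links cargo to dynein, went from 86.90 and 74.63 to 39.83 and 50.30. Pacsin2, which bends membranes in endocytosis, went from 36.66 and 36.32 to 13.26 and 12.08. All 3 fell by more than 20 points in each pair, with Hook3 the least alike between pairs.

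Some of the genes in this group serve every cell. Vps29, a subunit of the retromer that returns cargo from endosomes, went from 53.42 and 58.71 to 34.26 and 37.56. Ssr1, part of the translocon-associated complex of the endoplasmic reticulum, went from 40.60 and 42.17 to 22.12 and 23.11. Idh3g, a subunit of mitochondrial isocitrate dehydrogenase, went from 77.45 and 78.62 to 61.59 and 62.93. The last of these falls was just past the threshold in both pairs.

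The final 3 were Rundc1, with 91.24 and 96.66 before and 69.69 and 72.45 after, Tmco4 and Slc43a2. Tmco4, the only one of the 22 whose length (14 nt) is not a multiple of 3, went from 40.69 and 46.88 to 20 and 22.48. Slc43a2, an amino acid transporter, went from 15.19 and 20.94 to 0 in both siArglu1 libraries, with the VLOW score in siArglu1 vehicle. Of all 22, 9 lost more PSI than they kept in both pairs.

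Other microexons passed the threshold in 1 pair alone. There were 24 of these, 11 in vehicle and 13 in Dex, of which 17 had the same direction in the other pair. The share of all exons past it in 1 pair alone was not counted. Whatever the other pair, 11.1% of the microexons passed it in vehicle and 11.7% in Dex, beside 2.39% and 1.88% of all exons. In both pairs and 1 direction 7.38% of the microexons passed it, beside 0.798% of all exons. Some of the 24 were far from it in the other pair, as the 7 nt microexon of Trpm2, with differences of 19.68 in vehicle and 0.28 in Dex. Others were nearer to it and lower in both pairs. Git2, a GTPase-activating scaffold, had 75.59 and 81.01 with siControl and 61.15 and 53.90 with siArglu1. Snap91, an endocytic adaptor of synapses, had 77.06 and 70.83, then 50 and 57.48. Clip1, a protein of microtubule tips, had 90.85 and 86.35, then 69.59 and 74.72. Like Ptk2, each lay at least 11 points lower in both pairs.

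Increases seen in both pairs were fewer and smaller. Ccnl1, a cyclin of the splicing-associated CDK11 kinases, had a 14 nt microexon at 4.23 and 2.81 with siControl and at 17.81 and 18.97 with siArglu1. Incenp, a subunit of the chromosomal passenger complex, had 17.47 and 18.22, then 30.62 and 34.69. Both of these were scored SOK in all libraries, and both passed 15 points in the Dex pair and not in vehicle (13.58 and 13.15 points). With Ap1b1 above, the others of the 5 largest rises in both pairs were Ank2, an ankyrin of the membrane skeleton, with 31.64 and 25.20, then 39.24 and 52.66, and Stx16, a syntaxin of the Golgi, with 81.07 and 89.11, then 87.18 and 95.36. Ank2 had scores of N and LOW among its libraries. Of the 193 microexons under 15 in both siControl libraries, 190 stayed under 15 in both siArglu1 libraries, and Ccnl1, Trpm2 and Prune2 did not.

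Some microexons of middle inclusion moved little, and the following were chosen for that. Dctn1, the large dynactin subunit, had a 15 nt microexon at 48.46 and 48.42 with siControl and 43.66 and 41.61 with siArglu1. Spna2, an alpha spectrin of the membrane skeleton, had 64.62 and 61.18, then 56.30 and 56.89. Hnrnpm, a splicing regulator itself, had 26.58 and 21.40, then 22.91 and 16.13. With Ncam1 and Ap1b1 above, these were the 5 steadiest microexons of middle inclusion and sound coverage, and each moved by less than 10 points in both pairs.

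By length, 3 of 25 microexons of 3 to 6 nt with a siControl PSI of at least 15 fell in both pairs, 5 of 23 of 7 to 9 nt, 7 of 34 of 10 to 12 nt and 7 of 21 of 13 to 15 nt. The 3 in the shortest class were all 6 nt long (Hook3, Pacsin2 and Rundc1), out of 11 of that length. Of the 13 microexons of 3 nt, each the length of a codon, 0 fell in both pairs, and 48 of the 62 compared at this length had a siControl mean under 5. Clasp1, which stabilises microtubules, held its 3 nt microexon at 99.04 and 100 with siControl and 100 and 100 with siArglu1, and Asxl1, a chromatin protein, at 98.29 and 98.77, then 100 and 100. Cyth2, an exchange factor for Arf, had 86.56 and 84.59, then 73.00 and 74.96. Mon2, a protein of Golgi traffic, had 26.14 and 29.49, then 16.69 and 11.80, past 15 points in the Dex pair alone. With these few exons, the length classes cannot be ordered.

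Exons just longer than microexons gave lower shares, and 24 other cassette exons of up to 15 nt were left out here. Among exons with a PSI of at least 15 in both siControl libraries, 21.4% of the 103 microexons fell in both pairs, 10.8% of 194 exons of 16 to 27 nt and 1.91% of 1308 exons of 28 to 50 nt, beside 0.623% of all such exons. Among those whose length is a multiple of 3, the shares were nearer to each other, 22.1% of 95 microexons and 16.1% of 124 exons of 16 to 27 nt. Among exons at 15 to 85 in both siControl libraries, 34% of 47 microexons fell in both pairs, 22% of 82 exons of 16 to 27 nt and 8.41% of 226 of 28 to 50 nt, beside 5.23% of all exons at these levels. For multiples of 3 at these levels they were 34.1% of 44 microexons and 25.7% of 70 exons of 16 to 27 nt. The median differences of the 47 microexons were -11.2 points in vehicle and -13.86 in Dex. Those of the other cassette exons at these levels were -0.11 and 0.55. These differences between length classes were not tested.

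**Figure D4:**
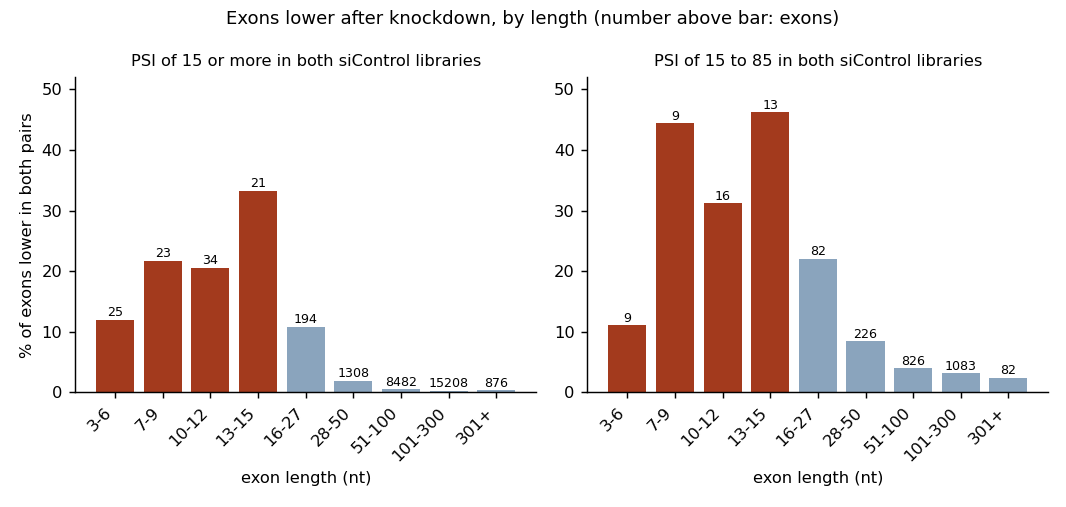
Share of exons, in percent, that were lower by at least 15 points in both pairs (vertical axis, from 0) by exon length in nt, microexons in red and other cassette exons in blue, with the number of exons above each bar; left, exons with a PSI of at least 15 in both siControl libraries, right, exons at 15 to 85. The bars of 7 to 15 nt are the highest on both sides, and 4 bars on the right rest on under 20 exons each.

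Few microexons with a siControl PSI of at least 15 were out of frame. Of the 103 microexons, 95 were a multiple of 3, of which 21 (22.1%) fell in both pairs, and 8 were not, of which 1 (12.5%) did, too few to compare the frames. Of the 13 fallen microexons placed in coding sequence, 8 began at a codon boundary and 5 after the first base of a codon. Of all 71 placed microexons with a siControl PSI of at least 15, these numbers were 34 and 24, with 13 more after the second base. The introns before the 22 had a median of 2328.5 nt and those after them 1032 nt, against 1563 and 1089 nt over the 103. The 103 include the 3 nt Ncam1 microexon, whose downstream intron came out at -5064 nt, which is not a possible length.

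Dex itself moved few microexons. In siControl cells 1 of 298 changed by at least 15 points, beside 0.643% of all exons (0.309% higher and 0.334% lower). In siArglu1 cells 7 changed (2 higher, 5 lower, 2.35%), beside 0.849% of all exons (0.479% higher and 0.37% lower). In both states 0 changed in 1 direction, beside 0.0334% of all exons. Of the 8, 5 had a score under OK in a library. The cardiac troponin T gene Tnnt2, the one change in siControl cells, had 15.24 and 47.22 with siControl, scored VLOW and LOW, and 38.72 and 36.18 with siArglu1. The 3 scored OK in every library changed in siArglu1 cells. With Dex, Scyl2 went from 76.85 to 61.45, Phc1 from 0 to 26.54 and the 7 nt microexon of Trpm2 from 23.81 to 6.61.

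The 22 knockdown-lowered microexons moved little with Dex. Each Dex comparison shares its libraries with the knockdown pairs. The 22 were chosen for falls in both pairs, a choice that can favour exons alike in vehicle and Dex. With Dex the 22 differed by -12.27 to 10.05 points in siControl cells and by -10.34 to 10.47 in siArglu1 cells. Over the 103 microexons the median size of a Dex difference was 2.23 points with siControl and 2.56 with siArglu1, against 7.57 and 8.59 for the knockdown in vehicle and in Dex.

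The mRNA of the host genes of the 22 microexons was compared as well. A gene was called changed where its log2 ratio, siArglu1 over siControl, was at least 0.81 in size and of 1 direction in both pairs. Of the 21 genes, 1 passed, Tmco4, with log2 ratios of -1.19 in vehicle and -0.85 in Dex, beside 9.89% of the 12497 genes tested. The ratios of the 21 spanned -1.19 to 0.51 with vehicle, and with Dex they spanned -0.85 to 0.35. In both pairs 12 lay below 0 and 7 above 0, a count that was not made over all genes. By edgeR's quasi-likelihood test with knockdown and Dex as terms, 15 of the 21 passed an adjusted p under 0.05, 4 higher and 11 lower. This test takes the vehicle and Dex pairs as repeats of the knockdown, though no combination had a replicate. By the same test 61.6% of all genes passed, 30.8% higher and 30.9% lower, so a pass by itself sets these hosts little apart. The directions differed: more of the passing hosts were lower than higher, while those of all genes were nearly even. This difference was not tested. Psap mRNA stood at 0.21 and 0.17, Vps29 at 0.51 and 0.28, Nbea at -0.74 and -0.36 and Lphn2 at -0.20 and 0.07. Falls in PSI were thus seen in genes whose mRNA was higher as well as in genes whose mRNA was lower.

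Over all 271 host genes, 23 changed in both pairs, 6 higher and 17 lower, beside 4.83% of all genes higher and 5.07% lower. With edgeR's quasi-likelihood test, knockdown and Dex as additive terms, many more passed a Benjamini-Hochberg adjusted p under 0.05, 193 host genes with 55 higher and 138 lower, and 61.6% of all genes with 30.8% higher and 30.9% lower. Their median log2 ratio was -0.25 in vehicle and -0.14 in Dex, and 0 over all genes. For the 21 hosts of fallen microexons the medians were -0.25 and -0.04.

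The mRNA of listed splicing regulators was compared as well, and their part in the microexon changes was not tested. Values here are log2 ratios in the vehicle and then the Dex pair, and where an interval is given it is an exact binomial 95% interval on the reads of the 2 libraries, which covers counting error only. Of 29 listed genes, 27 had at least 75 reads over the libraries. Among these 19 lay below 0 in both pairs and 4 above. The same count was not made over all genes, whose median ratio was 0 in both pairs.

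The activators of neural microexons themselves differed little: Srrm4 had -0.28 (-0.35 to -0.21) and 0.12 (0.06 to 0.18), of opposite sign in the pairs, and Srrm3 had -0.12 and -0.15. Srsf11 and Rnps1, which bind with SRRM4 at microexons, had -0.37 and -0.45 for the former and -0.58 and -0.74 for the latter. None of these 4 passed 0.81.

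Past 0.81 in both pairs, beside Arglu1 itself (-1.92 and -2.15), were Ptbp2, Mbnl2 and Elavl4. With Arglu1 these are 3 lower and 1 higher of the 27, beside 5.07% of all genes lower and 4.83% higher by this rule. Arglu1 was the siRNA target, so its fall was set by the design. Without it only Ptbp2 and Mbnl2 were lower and only Elavl4 higher, too few to set the listed regulators apart from all genes. Ptbp2, the neural PTB protein, had -1.73 (-1.77 to -1.68) and -1.76 (-1.80 to -1.72), with a cRPKM of 71.63 and 70.08 in the siControl libraries and 21.16 and 20.82 in the siArglu1 libraries. Mbnl2, of the muscleblind family, had -1.31 and -1.16. Elavl4, a neuronal RNA-binding protein, was the one that was higher, at 0.83 and 0.91. Ptbp1, the repressor of neural exons, had -0.22 and -0.15.

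**Figure D5:**
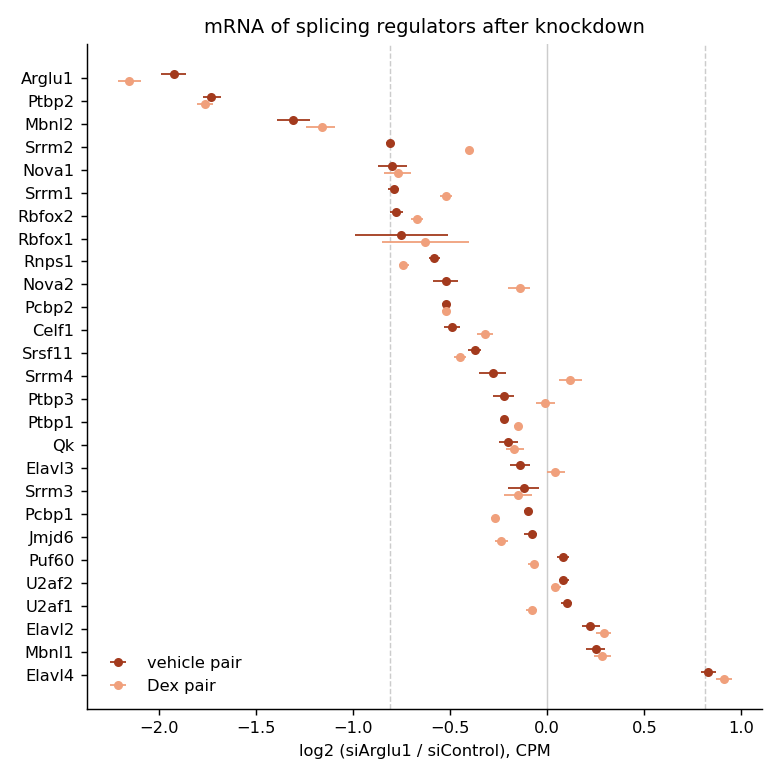
Log2 ratio of CPM, siArglu1 over siControl (horizontal axis), of the 27 splicing regulators with enough reads, in the vehicle and the Dex pair; bars are exact binomial 95% intervals on the reads and dashed lines stand at 0.81 in either direction. Arglu1, Ptbp2 and Mbnl2 lie past the left line and Elavl4 past the right line in both pairs.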

How the data were processed

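PolyA RNA of N2a cells was sequenced by the study in 4 libraries, each pooled from 3 cultures. Per the labels the processing used Bowtie and build mm9. Which step used them, and in which version, is not given in these sources. PSI, in percent and with a coverage score for each exon, was deposited by the authors as computed by vast-tools, along with read counts and cRPKM (RPKM corrected for mappability) for each gene. Columns in the gene table that hold ratios made by the authors were not used.

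Of 493 deposited microexon rows, 14 were exact repeats of other rows, which left 479. PSI differences were taken per pair and called at 15 points. Read counts were scaled by TMM (edgeR 4.0.16, R 4.3.3), genes with under 75 reads over the libraries were left out, and log2 CPM used a prior count of 1. Genes listed without a count were taken as 0 reads. Alternatives were additive models in edgeR, DESeq2 1.42.0 and limma 3.58.1, which take the knockdown and Dex as terms and leave 1 residual degree of freedom. With 1 library per combination, that residual is how far the knockdown difference itself differed between vehicle and Dex. These p-values thus take the vehicle and Dex pairs as repeats of the knockdown and measure no spread between cultures. The rules of size and the models were tested on simulated data, and the matching to GENCODE exons, the intron lengths and the gene lists were not. The rules of size, edgeR and DESeq2 recovered known changes, and limma on PSI did not, so its count below is given without weight. The planted changes were well past the thresholds, and those in PSI lay at middle levels with equal reads for every exon. Recovery by the rules of size was thus nearly given, and it says little about microexons near 0 or 100 or with few reads. Intervals on reads are exact (Clopper-Pearson). The microexon rows give no reads, so no interval of a PSI was possible. For scale, a PSI of 50 from 40 junction reads has an exact 95% interval of 33.8 to 66.2, and from 100 reads one of 39.8 to 60.2.

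By rule, the microexons named are all those that changed by 15 points in 1 direction in both pairs, the 5 with the largest rise by the smaller of the 2 changes, the 5 with the smallest larger change among those with a siControl mean PSI of 20 to 80 and OK or SOK throughout, and those past 15 points with Dex in both states, with Arglu1 and the listed regulators. The rule also held the shortest (3 nt). Of these only some, such as Clasp1, Asxl1, Cyth2 and Mon2, are named, and that choice followed no rule. Git2, Snap91, Clip1, Ptk2, Unc13a, the 12 nt L1cam, Trpm2, Prune2, Tnnt2, Scyl2 and Phc1 microexons were named after their values were seen. The microexons, the gene lists and the comparisons by starting PSI and length were chosen with earlier results of these data known.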

Additional observations from a re-analysis of the deposited data

Results flagged for a closer look

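In 4 microexons a difference of at least 15 points in one comparison stood beside a difference of at least 5 points in the opposite direction in its counterpart, between the knockdown pairs or between the Dex comparisons. None of these contrasts was tested, since each rests on single libraries. The 12 nt microexon of Ank3 differed by 33.24 points with knockdown in vehicle and by -5.07 in Dex. With Dex it differed by 14.32 in siControl cells and by -23.99 in siArglu1 cells. Its siArglu1 vehicle library was scored N. The 3 nt microexon of Cyth1, scored LOW in siArglu1 vehicle, differed by -8.46 and 15.95 with knockdown and by -7.01 and 17.4 with Dex. The 15 nt microexon of Lphn1 differed by 6.46 and -17.54 with knockdown, and its siArglu1 vehicle library was scored N. The 12 nt microexon of Tnnt2 differed by 23.48 and -11.04 with knockdown, and its siControl vehicle library was scored VLOW. All 4 had a score under OK in a library of the comparison.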

How the results depend on the processing

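With 1 library per group no library could be left out. Lower calls outnumbered higher ones in both pairs under each threshold and coverage rule tried, but 0 higher did not hold throughout: at 10 points 30 were lower and 2 higher, and with no coverage minimum (360 microexons) 28 were lower and 5 higher. The threshold and the coverage rule moved the counts. At 25 points the 22 microexons lower in both pairs became 6, the 33 changed in vehicle became 10, the 35 in Dex became 10, and the 7 changed by Dex in siArglu1 cells became 2. At 10 points Dex changed 8 microexons in siControl cells and 14 in siArglu1 cells. With no coverage minimum 52 changed in vehicle, and Dex changed 10 in siControl and 21 in siArglu1 cells. With OK or SOK in all libraries Dex changed 0 and 3. With SOK in all libraries (115 microexons) 12 changed in both pairs, 16 in vehicle, 14 in Dex, and Dex changed 0 and 0. In the class of simple microexons alone Dex changed 0 in siControl cells. The median knockdown difference, 0 in both pairs, was -11.9 in vehicle and -13.6 in Dex among microexons at 15 to 85 in the siControl library of the pair. Chosen by the siControl library of the other pair, a choice made after seeing the data, it was -11.55 and -13.86. limma on PSI and on logit PSI called 0 and 0 microexons, with 56 and 40 at an unadjusted p under 0.05 and a lowest adjusted p of 0.317 and 0.273. That fit did not recover known changes in simulated data, so its counts say nothing about stability. The 23 host genes became 11 at a log2 ratio of 1, 193 in the additive edgeR model and 163 in the additive DESeq2 model. The cause of these moves was not tested, apart from the stricter rules leaving fewer microexons to count. No paired analysis was possible because the groups share fewer than 2 replicate numbers. The additive models matched the libraries by Dex instead. Reads per microexon are not given, so the depth behind a PSI is known only as a score.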
